A study of Mus musculus with 47 samples.

Results

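Liver RNA of hairless mice that received a TiO2 nanoparticle sunscreen together with ultraviolet radiation (TiO2 + UVR, 6 arrays) was compared with liver RNA of mice that received neither sunscreen nor UVR (Control-UVR, 6 arrays). These 12 arrays were chosen by the sunscreen and UVR treatments on their labels and are part of a series of 47 arrays in 8 groups, with 1 array for each mouse. All mice were of the SKH:QS strain, which the study describes as female, albino, hairless and immune-competent, and they entered the study at 8 weeks of age. The TiO2 + UVR mice had 30 weekly treatments within 36 weeks, each with topical TiO2 sunscreen followed by 29 kJ/m2 of UVR. The TiO2 product also contained the organic UVR filters octyl methoxycinnamate and butyl methoxydibenzoylmethane, so nanoparticles and organic filters cannot be told apart in this group. The Control-UVR mice wore the same collars and were washed in the same way. Irradiated mice were also kept in a cage cooled by ice, under lamps that included tungsten halogen and blue-light lamps. The study does not describe this cooling and light for mice without UVR, so they cannot be told apart from UVR here. Further groups used below received UVR alone (Control + UVR), the TiO2 sunscreen alone (TiO2-UVR), an organic sunscreen from the same manufacturer with UVR (Organic + UVR) or without it (Organic-UVR), or a ZnO sunscreen with or without UVR. The study describes 1 cage for each treatment group while the labels describe individual housing, and with 1 cage a cage and its treatment cannot be told apart. The time of day at which each liver was taken is not given in the sources used here.

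The liver holds its own circadian clock, a loop in which activating transcription factors (Clock or Npas2 paired with Bmal1) bind DNA elements called E-boxes and switch on genes of their own repressors, among them the Per and Cry genes and Ciart. A linked loop is formed by the nuclear receptors Nr1d1 and Nr1d2, which repress activator genes including Npas2. Output factors such as Tef and Hlf, opposed by the repressor Nfil3, pass the rhythm on to genes of sterol, amino acid and drug metabolism. In liver, repressor and activator genes therefore peak at different times of day, and a single sample shows the phase at which it was taken.

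Levels are the deposited log2 values after robust multi-array average normalization (RMA), so that a difference of 1 is a doubling. A total of 9815 transcripts were tested, of which 7450 carried a single gene symbol. Correlations between any 2 of the 12 arrays lay between 0.966 and 0.992. Each array was regressed on the average array of the series, and the slope was 0.996 ± 0.0204 (SD, n = 6) in TiO2 + UVR and 1.03 ± 0.0123 (SD, n = 6) in Control-UVR, a difference of -0.0318 (exact permutation test, two-sided p = 0.00866), so the values of TiO2 + UVR arrays were slightly more compressed. Within Control-UVR, replicates 1 and 5 were the lowest controls for 24 of the 51 transcripts called lower below and the highest controls for 6 of the 17 called higher. Over all transcripts tested these shares were 6.61% and 7.97%. These replicates were picked out after their values were seen, and the called transcripts come from the same arrays. The counts are therefore a description and not a test. By the way they were counted, these untreated livers lay towards the levels of TiO2 + UVR for the genes concerned. Within TiO2 + UVR, replicate 4 was the lowest of its group for 26 of the 51 lower transcripts (25.9% of all tested) and replicate 6 for 16 (15.9%). In bulk liver, fewer cells of a type and less RNA per cell cannot be told apart.

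The comparison with limma called 68 of 9815 transcripts (0.693%) at a Benjamini-Hochberg adjusted p under 0.1. Of these, 17 were higher in TiO2 + UVR (0.173% of those tested) and 51 were lower (0.52%). At a share of 0.693% a short gene list would mostly hold no call, so lists without calls below are not shown to be unchanged. The lists were chosen with earlier results of these data known, so calls within a list are no test of that list. The repressing and output genes of the clock, Ciart, Per1 and Tef, were higher, and so were the kinase genes Mknk2 and Pim3, Ppp1r3g of the glycogen list and Tomm40l of the mitochondrial import list. The lower transcripts included the clock activator Npas2, the clock repressor Nfil3 and the sterol regulator Insig2. Also lower were 3 enzymes of aromatic amino acid and histidine metabolism, the manganese transporter Slc30a10, a pair of tubulin genes and hormone signalling genes. The groups did not overlap for 6 of the 17 higher and 19 of the 51 lower transcripts, against 0.509% and 0.56% of all transcripts tested (1.07% in either direction). The median log2 difference was 0.68 for the higher and -0.74 for the lower transcripts, and 0.03 over all transcripts. Lower transcripts tended to be bright, with a median Control-UVR level of 7.28 against 5.19 over all transcripts and 5.49 for the higher ones.

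**Figure D1:**
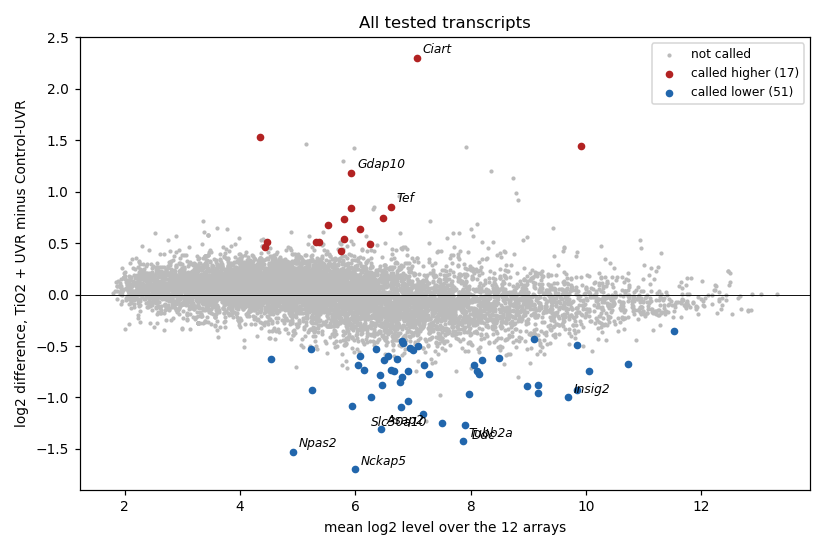
Difference between the groups (vertical axis, log2 level in TiO2 + UVR minus Control-UVR) against the mean log2 level over the 12 arrays (horizontal axis) for the 9815 transcripts tested, 1 point each. The 17 transcripts called higher and the 51 called lower are coloured, with Ciart highest at 2.30 and Nckap5 lowest at -1.70.

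An unadjusted p under 0.05 was reached by 1006 transcripts (10.2%). Without the replicate number of the labels in the fit, 30 transcripts were called, 11 higher and 19 lower, all of them among the 68. The named genes whose calls ended in that fit were Per1, Tomm40l, Gdap10 and Cys1 among the higher and Ddc, Npas2, Nfil3, Tubb2a, Eci3, Leap2, Ypel2, Olfr16 and Prim1 among the lower, with adjusted p-values from 0.113 (Ddc) to 0.524 (Leap2). Leaving out 1 array at a time gave 24 to 162 calls: 27, 28 and 29 without Control-UVR replicate 2, 4 or 6, and 162, 33 and 24 without TiO2 + UVR replicate 1, 4 or 6. The calls of 19 transcripts, 4 higher and 15 lower, held whichever of the 12 arrays was left out. Those with a symbol were Mknk2 among the higher and, among the lower, Nckap5, Insig2, Slc30a10, Asap2, Ddc, Tab2, Hal, Avpr1a, Tars, Rfx4, Stat5b, Sumo3, Ndrg1, Mfsd4b3-ps and 2610008E11Rik, the last 4 of which were picked out here for this property after their values were seen. No clock gene was among them. With each array's slope as a covariate the calls were 62 higher and 52 lower, and after quantile normalization 23 higher and 36 lower.

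**Figure D2:**
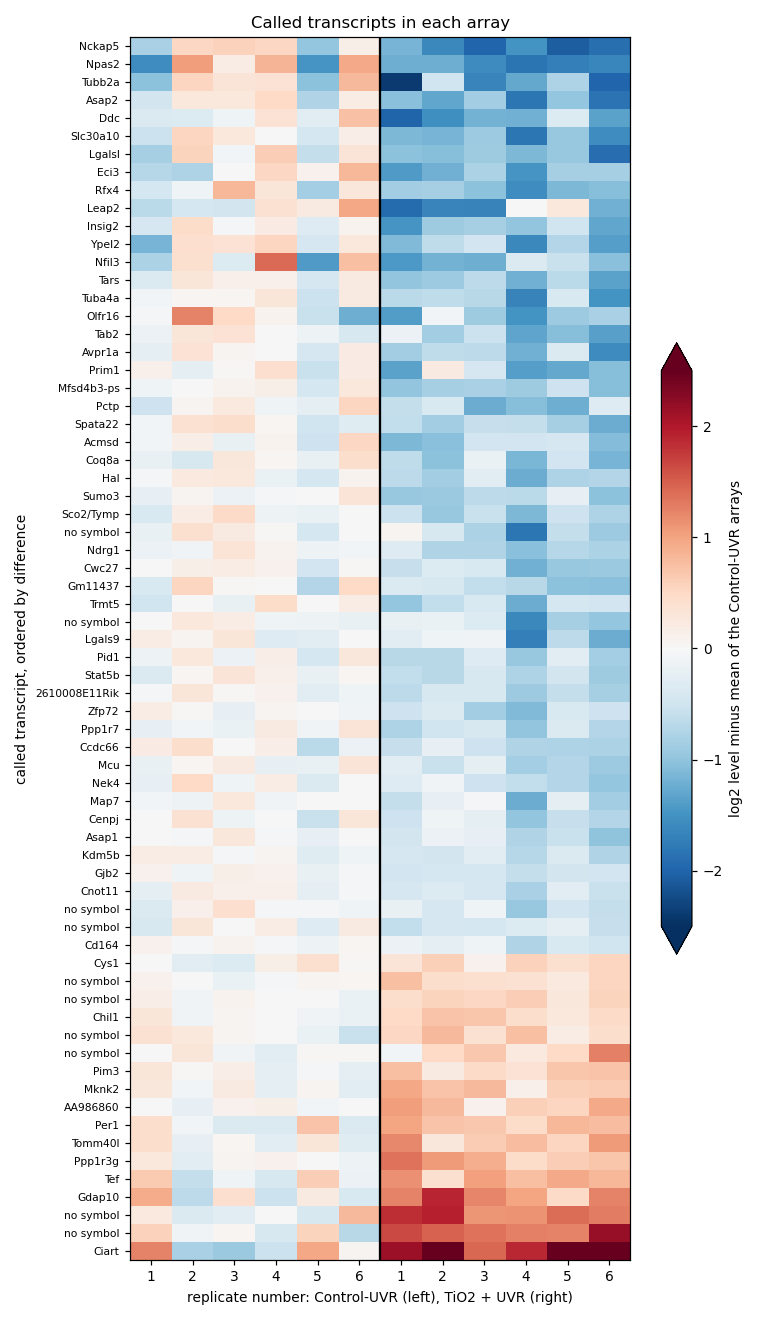
Each of the 68 called transcripts (rows, ordered by difference) in each of the 12 arrays (columns, by replicate number), coloured by log2 level minus the mean of the Control-UVR arrays. The TiO2 + UVR columns are mostly blue for the 51 lower and red for the 17 higher transcripts, and Control-UVR replicates 1 and 5 share these colours for Npas2, Tubb2a, Nckap5, Ciart, Tef and Per1.

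The 5 clock genes called in this comparison stand on different sides of the loop, and their promoters are shown because the E-box is the element through which the activators work. The sequences are the 250 bases before each RefSeq start (GRCm38.p6), 5′ to 3′ along the gene's strand. Capitals mark the E-box CACGTG, the core of the ROR element bound by the Nr1d and ROR receptors (TNGGTCA, or its reverse complement), or the D-box of Tef and Nfil3 (TTANGTAA, or its reverse complement). Both strands were searched for each motif. The E-box reads the same on both, and the others were also sought as their reverse complements. Per1 and Tef have a pair of starts each.
Ciart (chr3:95882229-95882478, minus strand): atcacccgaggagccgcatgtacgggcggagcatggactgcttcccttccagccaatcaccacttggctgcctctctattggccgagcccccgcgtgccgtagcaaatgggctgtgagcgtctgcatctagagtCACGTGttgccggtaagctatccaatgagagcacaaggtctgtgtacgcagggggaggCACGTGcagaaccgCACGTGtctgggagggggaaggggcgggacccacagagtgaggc
Per1, first start (chr11:69098699-69098948, plus strand): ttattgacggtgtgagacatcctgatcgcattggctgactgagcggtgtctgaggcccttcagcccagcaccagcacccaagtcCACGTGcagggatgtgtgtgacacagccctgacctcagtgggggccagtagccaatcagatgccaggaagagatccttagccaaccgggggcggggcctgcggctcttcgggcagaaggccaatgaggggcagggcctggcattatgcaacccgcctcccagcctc
Tef, first start (chr15:81802423-81802672, plus strand): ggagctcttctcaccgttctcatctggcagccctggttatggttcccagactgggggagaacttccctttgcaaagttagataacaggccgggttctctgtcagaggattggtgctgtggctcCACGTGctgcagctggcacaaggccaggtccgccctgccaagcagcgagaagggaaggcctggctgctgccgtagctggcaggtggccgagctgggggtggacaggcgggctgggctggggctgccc
Tef, second start (chr15:81811164-81811413, plus strand): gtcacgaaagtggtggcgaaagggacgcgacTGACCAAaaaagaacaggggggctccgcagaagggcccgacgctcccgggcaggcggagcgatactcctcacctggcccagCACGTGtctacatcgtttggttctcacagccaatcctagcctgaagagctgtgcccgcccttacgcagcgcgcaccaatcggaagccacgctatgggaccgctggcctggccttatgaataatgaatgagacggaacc
Npas2 (chr1:39194022-39194271, plus strand): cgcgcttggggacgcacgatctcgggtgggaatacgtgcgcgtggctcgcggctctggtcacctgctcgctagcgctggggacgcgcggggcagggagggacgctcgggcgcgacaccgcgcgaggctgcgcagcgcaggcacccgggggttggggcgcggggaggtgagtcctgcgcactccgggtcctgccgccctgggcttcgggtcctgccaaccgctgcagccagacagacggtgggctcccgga
Nfil3 (chr13:52981040-52981289, minus strand): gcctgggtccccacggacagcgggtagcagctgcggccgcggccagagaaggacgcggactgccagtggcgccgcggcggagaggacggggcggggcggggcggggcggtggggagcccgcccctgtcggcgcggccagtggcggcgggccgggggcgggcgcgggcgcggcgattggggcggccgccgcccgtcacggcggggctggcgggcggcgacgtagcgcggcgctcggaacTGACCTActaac
Ciart held 3 E-boxes, which began 116, 58 and 44 bases before its start. Per1 held 1 at its first start (166 bases before it) and none at its second, whose window is not shown, and Tef held 1 at each start (127 and 138 bases). Npas2 and Nfil3, the clock genes that were lower, held none in this window. Windows of clock genes that were not called are not given here, and a link between E-boxes and direction was not tested. An E-box occurs in 6.02% of 32851 windows of this length, a ROR core in 9.19% and a D-box in 2.06%. A ROR core lay in the windows of Nfil3 and of the second Tef start, and a D-box in none. A match of letters is a description of the window and not a bound site.

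Ciart, which represses the activator pair and whose window holds the 3 E-boxes above, had the largest increase of any transcript. Its lowest, median and highest log2 levels were 4.98, 5.67 and 7.15 in Control-UVR and 7.34, 8.26 and 9.13 in TiO2 + UVR. Every TiO2 + UVR array lay above every control, and the controls nearest to them were replicates 1 and 5. The difference of 2.30 (SE 0.54, adjusted p = 0.0379) is a 4.93-fold higher level. Leaving out 1 array gave differences of 2.00 to 2.53 and ended the call in 3 of 12 cases. The probeset is named Ciart by the platform annotation and RefSeq places that gene on chromosome 3, whereas 19 of the 20 named probesets nearest to it by number belong to chromosome 10 genes.

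Per1, a core repressor that light and glucocorticoids also induce, measured 5.06, 5.21 and 6.15 (lowest, median, highest) in Control-UVR and 5.88, 6.16 and 6.42 in TiO2 + UVR. The groups overlapped, since control replicate 5 lay above 3 of the TiO2 + UVR arrays. The array of each replicate number was higher in TiO2 + UVR, but these numbers were not shown to pair the arrays. The difference was 0.74 (SE 0.19, adjusted p = 0.0753), and the call ended in 9 of 12 cases when an array was left out. Of the 7 repressing-arm genes measured, only Ciart and Per1 were called, against 0.693% of all transcripts. The median difference of the 7 was 0.49 against 0.03 over all transcripts. Nr1d2, one of the nuclear receptor repressors, lay at 9.29 ± 0.16 (SD, n = 6) against 8.37 ± 0.58 (SD, n = 6), without overlap, but the difference of 0.92 was not called (adjusted p = 0.162). Per2 lay at 0.49 (adjusted p = 0.285), Timeless at 0.22 and Cry1 at -0.19. The other nuclear receptor repressor, Nr1d1, varied most, from 6.26 to 10.64 in TiO2 + UVR and from 8.06 to 10.19 in Control-UVR, with a difference of -0.45 (SE 0.57, adjusted p = 0.834).

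Npas2, the only activating-arm gene measured, had Control-UVR levels of 4.12, 6.20 and 6.71 (lowest, median, highest) and TiO2 + UVR levels of 3.85, 4.07 and 4.46. The 6 TiO2 + UVR livers lay close together at the bottom of the range. The controls were divided: replicates 1 and 5 were at 4.12 and 4.20, among the TiO2 + UVR arrays, and the other 4 were at 5.87 or above. The difference was -1.53 (SE 0.38, adjusted p = 0.0557), and the call ended in 8 of 12 cases when an array was left out.

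Tef, a PAR bZIP output factor that drives genes of detoxification, rose by 0.85 (SE 0.21, adjusted p = 0.0545), from a Control-UVR median of 6.06 (range 5.59 to 6.83) to 7.07 (range 6.59 to 7.33). All but 1 of the TiO2 + UVR arrays were above every control, and leaving out an array ended the call in 6 of 12 cases (adjusted p up to 0.274). Its relative Hlf lay at 0.42 (adjusted p = 0.352). Nfil3, the repressor that competes with these factors for the D-box, fell by 0.97 (SE 0.26, adjusted p = 0.0916). Its controls ranged from 7.03 to 9.86 and covered 5 of the 6 TiO2 + UVR arrays (7.01 to 8.08), and leaving out an array ended this call in 10 of 12 cases. Kinases, ubiquitin ligases and a deacetylase that modify clock proteins (7 genes, including Csnk1d, Csnk1e and Sirt1) had no call, with differences from -0.36 to 0.01.

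A clock score was formed for each array as the mean standardized level of Ciart, Per1 and Tef minus that of Npas2. Its lowest, median and highest values were -2.24, -1.67 and 1.52 in Control-UVR and 1.54, 2.00 and 2.35 in TiO2 + UVR, and control replicates 1 and 5, at 1.49 and 1.52, lay just below the TiO2 + UVR arrays. The other 4 controls were at -1.45 or below. With this score as a covariate limma called no transcript in TiO2 + UVR against Control-UVR, although 841 had an unadjusted p under 0.05. The differences of Insig2 (-0.58), Ddc (-0.85), Tars (-0.60), Slc30a10 (-0.44) and Mknk2 (0.35) kept their sign at a smaller size, each with an adjusted p of 0.558. The score is built from genes called in this comparison and nearly follows the groups, so in these arrays the clock genes' level and the treatment can hardly be told apart.

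**Figure D3:**
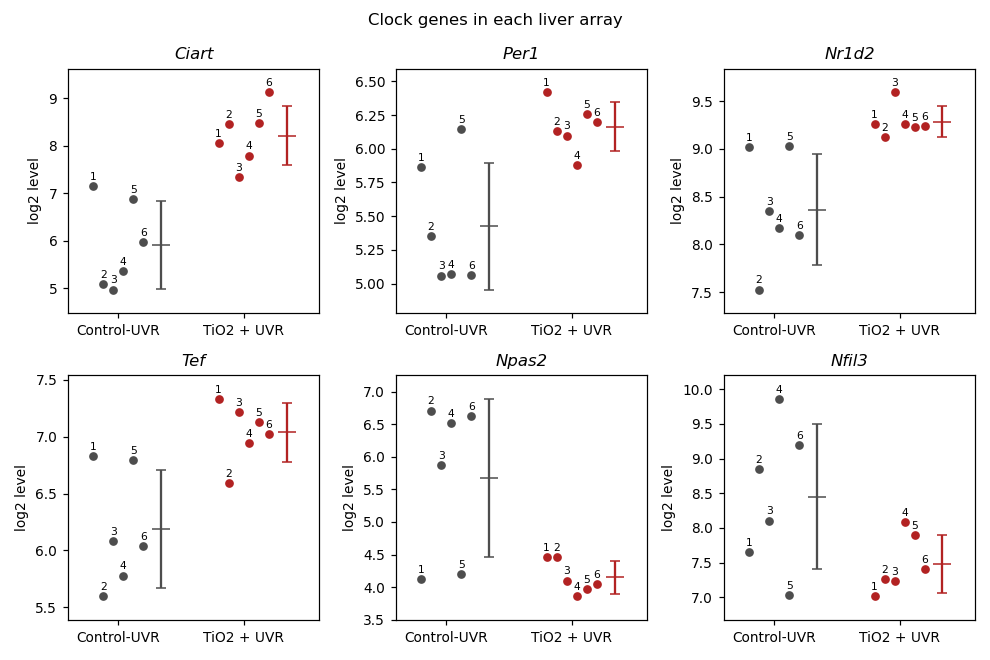
Log2 levels (vertical axis) of 6 clock genes in each array of Control-UVR (grey) and TiO2 + UVR (red); numbers are replicate numbers and bars beside the points are the mean ± SD of 6 arrays. Control replicates 1 and 5 lie nearest to the TiO2 + UVR arrays for Ciart, Per1, Tef and Npas2, and the groups do not overlap for Ciart and Nr1d2.

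Of 5 further liver genes with a known daily rhythm, Insig2 was lower and the others were not called. Lpin1, which makes diacylglycerol and is induced on fasting, lay at 8.96 ± 0.73 (SD, n = 6) against 7.76 ± 0.42 (SD, n = 6) without overlap, a difference of 1.20 (SE 0.40, adjusted p = 0.26). Rgs16, a regulator of G protein signalling, lay at 1.13 (adjusted p = 0.385) and Nampt, the rate-limiting enzyme of NAD salvage, at 0.99 (adjusted p = 0.265). Tfrc, the transferrin receptor, lay at -0.05.

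Insig2 holds the sterol-sensing machinery in the endoplasmic reticulum and thereby restrains cholesterol and fatty acid synthesis. Its Control-UVR levels were 9.77, 10.21 and 10.63 (lowest, median, highest) and those of TiO2 + UVR were 8.71, 9.24 and 9.68, with no overlap. The decrease of 1.00 (SE 0.17, adjusted p = 0.00349) was called whichever array was left out. None of 8 measured genes of the mevalonate and sterol synthesis pathway was called, among them Hmgcs1 at -0.12, Sqle at 0.18 and Idi1 at 0.17, and their median difference was 0.02. Srebf2, the transcription factor that drives this pathway, lay at -0.23 (adjusted p = 0.66). Of 8 fatty acid synthesis genes none was called, with Fasn at 0.02 and Acaca at 0.28. With 0.693% of all transcripts called, lists of 8 genes would mostly hold no call.

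No gene of heme synthesis was called among the 4 measured, which is usual at the share called over all transcripts (0.693%). Cpox, which acts late in the pathway, lay at -0.26 (SE 0.14, adjusted p = 0.544), Ppox at 0.01, the porphyrin transporter Abcb6 at 0.16 and the mitochondrial carrier Slc25a39 at -0.08. The first and rate-limiting enzyme was not analysed here. None of 6 genes of heme breakdown and iron handling was called either; the iron exporter Slc40a1 lay at 0.40 (SE 0.16, adjusted p = 0.382).

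Among 9 tubulin and stathmin genes, which build microtubules and control their turnover, Tubb2a and Tuba4a were lower and no gene was higher. Over all transcripts 0.52% were called lower and 0.173% higher. Tubb2a measured 7.55, 8.91 and 9.38 (lowest, median, highest) in Control-UVR and 6.19, 7.10 and 8.08 in TiO2 + UVR. Control replicates 1 and 5, both at 7.55, again lay among the TiO2 + UVR arrays while the other controls were at 8.89 or above. The difference was -1.43 (SE 0.35, adjusted p = 0.0545). Tuba4a fell by 0.93 (SE 0.22, adjusted p = 0.0379), and only control replicate 5 (9.77) was inside the TiO2 + UVR range of 8.62 to 9.91. When an array was left out, the call of Tubb2a ended in 7 of 12 cases (adjusted p up to 0.279) and that of Tuba4a in 6 (up to 0.223). The median of the 9 genes was -0.15. Tuba1a lay at -0.15, Tubb2b at 0.07, Tubg1 at -0.38 and the stathmin family member Stmn4 at 0.33 (adjusted p = 0.414).

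Enzymes of aromatic amino acid and histidine metabolism lay below 0 in all 10 genes measured, with a median of -0.23, and 3 of them were called lower. Over all transcripts 0.52% were called lower and 4124 of 9815 lay below 0. This list was chosen with earlier results of these data known, so its count of calls is no test of the pathway. Ddc, which decarboxylates aromatic amino acids, measured 8.18, 8.34 and 9.28 (lowest, median, highest) in Control-UVR and 6.54, 7.26 and 8.20 in TiO2 + UVR. Only TiO2 + UVR replicate 5 reached the lowest controls. Ddc fell by 1.27 (SE 0.24, adjusted p = 0.00539). Hal, the first enzyme of histidine breakdown, fell by 0.75 (SE 0.15, adjusted p = 0.012) from 10.42 ± 0.27 (SD, n = 6), and Acmsd, which steers tryptophan away from NAD synthesis, by 0.77 (SE 0.20, adjusted p = 0.06) from 7.67 ± 0.35 (SD, n = 6), a call that ended in 6 of 12 cases when an array was left out. Amdhd1, a later enzyme of histidine breakdown, lay at -0.57 without overlap of the groups but was not called (adjusted p = 0.149). The urea cycle list, where the nitrogen ends up, had no call among 6 genes and a median of -0.06.

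Threonyl-tRNA synthetase (Tars), which charges tRNA with threonine, fell by 0.96 (SE 0.20, adjusted p = 0.0121). Its 6 TiO2 + UVR arrays (8.31 to 9.01) all lay below the controls (9.22 to 9.96). The other 6 cytosolic tRNA synthetases measured were not called and lay between -0.48 (Farsb) and -0.28 (Rars), so all 7 were below 0 with a median of -0.42. The heat shock and endoplasmic reticulum stress list had 17 of 19 genes below 0, a median of -0.20 and no call; the co-chaperone Dnajb11, at -0.58, had its smallest adjusted p (0.205). Over all transcripts, 4124 of 9815 lay below 0. The median difference was -0.04 in a fit of the brighter transcripts alone, against 0.03 over all transcripts. The part of brightness in this and other lists that lay mostly below 0 was not tested.

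Slc30a10, a manganese exporter that belongs to the zinc transporter family, had Control-UVR levels of 7.58, 8.21 and 8.65 (lowest, median, highest) and TiO2 + UVR levels of 6.31, 6.97 and 7.22. The groups did not overlap, and the decrease of 1.25 (SE 0.22, adjusted p = 0.0035) is a 2.38-fold lower level. The other 10 zinc and manganese transporters measured had no call, with differences from -0.38 to 0.29.

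Avpr1a, the vasopressin receptor of hepatocytes, fell by 0.88 (SE 0.18, adjusted p = 0.0121). It ranged from 9.18 to 9.97 in Control-UVR and from 8.03 to 9.25 in TiO2 + UVR, and replicate 5 of the latter was the array inside the control range. Stat5b, through which growth hormone acts on the liver, fell by 0.63 (SE 0.13, adjusted p = 0.0127), with TiO2 + UVR arrays at 5.94 to 6.43, all below the controls at 6.45 to 7.14. They belong to a list of 12 genes of estrogen and steroid hormone response, in which Per1 was the only gene called higher and the median was 0.01. Over all transcripts 0.693% were called. The estrogen receptor genes Esr1 and Esr2 lay at -0.01 and 0.29, Ghr at 0.04 and Igf1 at -0.06, none of them called.

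Several genes that were higher encode signalling and metabolic proteins. Mknk2, a kinase that phosphorylates the translation factor eIF4E, rose by 0.64 (SE 0.13, adjusted p = 0.00998). Its levels were 5.49, 5.75 and 6.05 (lowest, median, highest) in Control-UVR and 5.89, 6.42 and 6.72 in TiO2 + UVR, and TiO2 + UVR replicate 4 was the only one within the control range. Ppp1r3g, which targets a phosphatase to glycogen, rose by 0.85 (SE 0.19, adjusted p = 0.0242), with controls at 5.22 to 5.75 all below TiO2 + UVR at 5.95 to 6.84. The kinase gene Pim3 rose by 0.54 (SE 0.13, adjusted p = 0.0448) and Tomm40l, a relative of the mitochondrial import channel, by 0.75 (SE 0.20, adjusted p = 0.0951). The call of Tomm40l ended in 9 of 12 cases when an array was left out (adjusted p up to 0.366), that of Pim3 in 4 and that of Ppp1r3g in 1. The other 5 insulin and kinase signalling genes, 6 glucose and glycogen genes and 8 mitochondrial import genes measured were not called.

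The remaining named increases were Gdap10 (1.18, SE 0.31, adjusted p = 0.0706), AA986860 (0.68), the chitinase-like gene Chil1 (0.51) and the cilium gene Cys1 (0.43). Leaving out an array ended the call of Gdap10 in 7, of Chil1 and Cys1 in 6 each and of AA986860 in 3 of 12 cases. Chil1 was dim, at 4.21 ± 0.17 (SD, n = 6) in Control-UVR. Of the 17 higher transcripts, 6 had no symbol, and 2 of these, probesets 10349569 (1.53, adjusted p = 0.00868) and 10411332 (1.45, adjusted p = 0.0254), were the largest increases after Ciart. Neither overlapped between the groups; the first measured 2.88 to 4.15 in Control-UVR and 4.82 to 5.76 in TiO2 + UVR.

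The deepest decrease of any transcript was in a probeset of Nckap5, which encodes a partner of the adaptor protein NCK. The gene has 2 probesets, and the other was not called. Levels of the called probeset were 5.87, 7.17 and 7.41 (lowest, median, highest) in Control-UVR and 4.77, 5.08 and 5.68 in TiO2 + UVR. The difference of -1.70 (SE 0.28, adjusted p = 0.00177) left no overlap, although control replicates 1 and 5, at 6.02 and 5.87, were again the lowest controls. Asap2, a regulator of Arf GTPases, fell by 1.31 (SE 0.24, adjusted p = 0.00539) and did not overlap either, and the signalling adaptor Tab2 fell by 0.89 (SE 0.17, adjusted p = 0.00586).

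Lgalsl, a galectin-like gene, fell by 1.16 (adjusted p = 0.0252), the transcription factor Rfx4 by 1.08 (adjusted p = 0.0127) and Eci3, an enoyl-CoA isomerase of fatty acid oxidation, by 1.09 (adjusted p = 0.0531). Eci3 was the only one called among 13 genes of fatty acid oxidation and PPAR alpha targets, whose median was 0.07. Leap2, a liver peptide that opposes ghrelin, fell by 1.03 (SE 0.25, adjusted p = 0.0522) with a wide spread in TiO2 + UVR, where replicates 4 and 5 were at 7.41 and 7.68 and the others at 6.23 or below. Ypel2 (-0.99), the olfactory receptor gene Olfr16 (-0.93) and the DNA primase gene Prim1 (-0.88) completed the larger decreases. Leaving out an array ended the call of Olfr16 in 8, of Prim1 in 6, of Eci3, Leap2 and Ypel2 in 5 each and of Lgalsl in 4 of 12 cases. Prim1 was the only call among 10 genes of cell division and DNA replication. The 24 lower transcripts with 1 symbol that fell outside the rule for named genes differed by -0.85 (Mfsd4b3-ps) to -0.35 (Cd164). From these, chosen after their values were seen, Sumo3, a ubiquitin-like modifier, fell by 0.74 (adjusted p = 0.00177), Ndrg1 by 0.74 (adjusted p = 0.0127), the mitochondrial calcium channel gene Mcu by 0.60 and the gap junction gene Gjb2 by 0.49.

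At 0.693% called over all transcripts, short lists mostly hold no call. Lists for responses that UVR or foreign compounds might evoke in liver had none. These were DNA damage response and repair (13 genes, median -0.05), p53 and its targets (9, median -0.15), inflammation and acute phase (9, median -0.01), immediate early genes (10, median 0.14), xenobiotic sensors and conjugation (11, median -0.02) and oxidative stress (5, median -0.02). In the first of these the end-joining genes Xrcc5 and Xrcc6 lay at -0.42 and -0.41 (adjusted p = 0.353 and 0.349). An unadjusted p under 0.05 in limma was reached by 5 of the 13 DNA damage genes, against 10.2% of all transcripts. It was also reached by 2 xenobiotic genes, 1 immediate early gene and no gene of the p53, inflammation and oxidative stress lists. Nr1i3, the receptor CAR that senses foreign compounds, lay at 0.65 (SE 0.24, adjusted p = 0.321), and Mdm2, a p53 target, at -0.24. The 6 interferon response genes all lay below 0 with a median of -0.47 and no call, and 4 had an unadjusted p under 0.05. They were led by Irgm1 at -0.64 (SE 0.20, adjusted p = 0.229). Bile acid genes (4), steroid-metabolising enzymes (7) and sterol uptake genes other than Insig2 (3) were not called either.

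**Figure D4:**
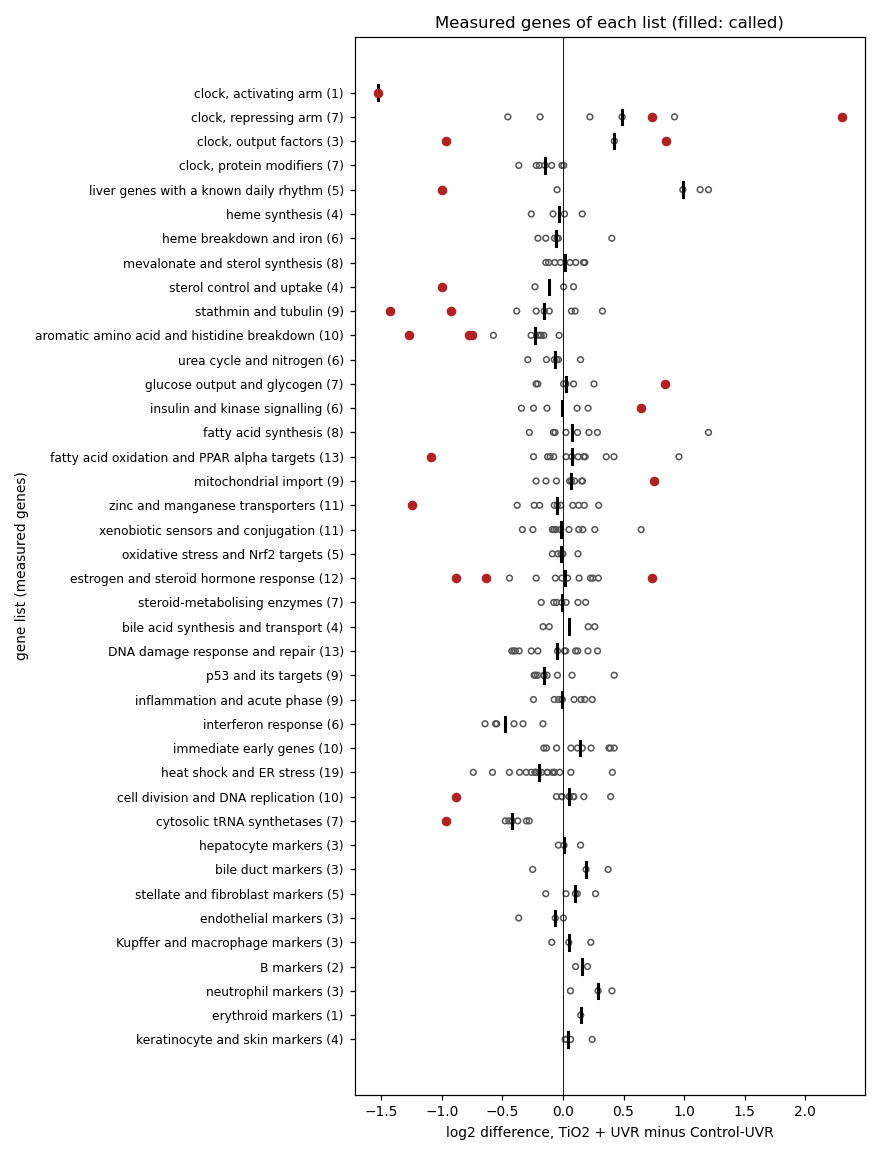
Log2 difference, TiO2 + UVR minus Control-UVR (horizontal axis), of the measured genes of each list (vertical axis, number of genes in brackets); filled red points were called, open points were not, and black bars are the list medians. Calls are scattered over the clock, tubulin, amino acid and hormone lists and fall on single genes of some others. The lists of DNA damage, inflammation and cell type markers hold open points only.

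The labelled tissue was checked against its markers. The hepatocyte markers Ahsg, Cps1 and Glul were bright, with Ahsg at 12.88 ± 0.14 (SD, n = 6) and Glul at 10.65 ± 0.40 (SD, n = 6) in Control-UVR, and lay at 0.01, -0.04 and 0.15. No marker was called for bile duct (3 genes), stellate cells and fibroblasts (5), endothelium (3), Kupffer cells and macrophages (3), B cells (2), neutrophils (3), red cells (1) or keratinocytes (4), and no T or NK cell marker was measured. The largest differences were in Krt7 of the bile duct at 0.37 (adjusted p = 0.157), Ly6g of neutrophils at 0.40 (adjusted p = 0.414) and Pecam1 of endothelium at -0.36 (adjusted p = 0.47). The part of these cells in the results was not tested.

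To see whether the levels of TiO2 + UVR went with the sunscreen, with UVR or with both, the same genes were read in the groups that received only one of them. TiO2-UVR against Control-UVR gave no call in limma (379 transcripts, 3.86%, at an unadjusted p under 0.05). Control + UVR against Control-UVR gave 5 (0.0509%), all lower. TiO2 + UVR itself was compared with each of these groups: 64 transcripts (0.652%; 23 or 0.234% higher, 41 or 0.418% lower) differed from TiO2-UVR, and 69 (0.703%; 43 or 0.438% higher, 26 or 0.265% lower) from Control + UVR. These comparisons share the TiO2 + UVR arrays and are not independent of the first. Without the replicate number in the fit they gave 42 and 45 calls. Against Control + UVR the balance of directions was not stable: with only the arrays of these groups in the fit, 52 transcripts were called, 19 higher and 33 lower.

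Ciart lay at 5.35 ± 0.46 (SD, n = 6) in TiO2-UVR and at 5.88 ± 0.60 (SD, n = 6) in Control + UVR, against 8.21 ± 0.62 (SD, n = 6) in TiO2 + UVR. It was higher in TiO2 + UVR than in the former by 2.86 (adjusted p = 0.00252) and than in the latter by 2.33 (adjusted p = 0.0306). Npas2, at 6.27 ± 0.93 (SD, n = 6) and 5.64 ± 0.42 (SD, n = 6), differed in TiO2 + UVR by -2.12 (adjusted p = 0.00177) and -1.49 (adjusted p = 0.0628). Nr1d2, which was not called against Control-UVR, was higher than in these groups by 1.72 (adjusted p = 0.000276) and 1.33 (adjusted p = 0.0119). Insig2 was at 10.40 ± 0.27 (SD, n = 6) and 10.21 ± 0.32 (SD, n = 6) and differed by -1.22 and -1.02. Slc30a10 differed by -1.49 and -1.38, Ddc by -1.59 and -1.33 and Avpr1a by -1.15 and -0.99. Hal, Tars, Asap2, Tubb2a, Tef and Mknk2 were also called in both, in the same direction as against Control-UVR, while Per1 and Ppp1r3g were called against TiO2-UVR (0.93 and 0.92) but not against Control + UVR (0.51 and 0.61; adjusted p = 0.36 and 0.196).

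**Figure D5:**
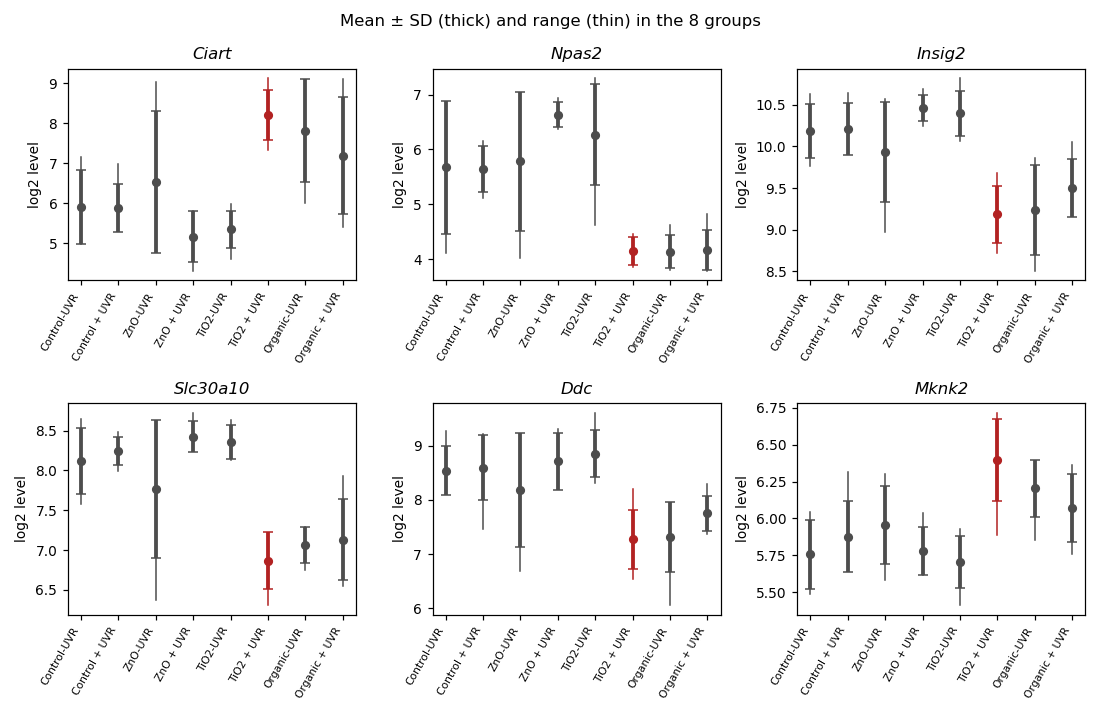
Log2 level (vertical axis) of 6 genes in the 8 groups (horizontal axis), as mean ± SD (points with thick bars) and range (thin lines) over 6 arrays, or 5 for ZnO + UVR; TiO2 + UVR is red. For Npas2 the TiO2 + UVR mean of 4.15 stands beside 4.14 in Organic-UVR and 4.16 in Organic + UVR, against 6.27 in TiO2-UVR and 5.64 in Control + UVR.

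The interaction asks whether the UVR effect under TiO2 sunscreen differed from that without sunscreen. It was called for 17 transcripts (0.173%), 9 positive (0.0917%) and 8 negative (0.0815%), and for 7 without the replicate number in the fit. Under the sunscreen UVR went with an Insig2 level lower by 1.22 on the log2 scale, against a difference of 0.03 without sunscreen, which gives an interaction of -1.25 (SE 0.25, adjusted p = 0.0196). The corresponding values were -1.49 and 0.13 for Slc30a10 (interaction -1.62, SE 0.31, adjusted p = 0.0196), -1.59 and 0.06 for Ddc (-1.65, SE 0.33, adjusted p = 0.0196), -1.08 and 0.26 for Acmsd (-1.35, SE 0.28, adjusted p = 0.0207) and -1.15 and 0.11 for Avpr1a (-1.26, SE 0.25, adjusted p = 0.0196). Among the called genes Tubb2a had the largest interaction, -2.25 (SE 0.50, adjusted p = 0.0469). In the other direction, Nr1d2 differed by 1.72 with and -0.41 without sunscreen (interaction 2.13, SE 0.38, adjusted p = 0.0123) and Gdap10 by 1.49 and -0.60 (2.10, SE 0.43, adjusted p = 0.0209). The interactions of Ciart (2.89, SE 0.76, adjusted p = 0.132), Npas2 (-2.09, SE 0.54, adjusted p = 0.118), Tef (1.18, adjusted p = 0.106) and Nfil3 (-1.45, adjusted p = 0.106) were not called.

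Compared with Organic + UVR, whose product shares both organic filters of the TiO2 product, holds further organic filters and no TiO2, no transcript was called in limma. An unadjusted p under 0.05 was reached by 380 (3.87%) and the smallest adjusted p was 0.995, while 25, all lower in TiO2 + UVR, were called when limma was given these 12 arrays only. The difference was -0.01 for Npas2 (95% interval -0.78 to 0.76), -0.31 for Insig2 (-0.67 to 0.04), -0.26 for Slc30a10 (-0.71 to 0.19) and 1.02 for Ciart (-0.07 to 2.11). For Ddc the interval was -0.96 to -0.01, for Hal -0.65 to -0.05 and for Ppp1r3g 0.10 to 0.86, each without adjustment for the number of transcripts. These intervals leave room for differences as large as some of those from Control-UVR, so the groups were not shown to be alike.

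Set against Control-UVR, the organic products had their own values for the same genes. A total of 162 transcripts were called in Organic + UVR (1.65%) and 321 in Organic-UVR (3.27%). The Organic-UVR values include replicate 1, whose slope of 0.77 was the lowest of any array, and were not tested without it. Npas2 differed by -1.51 in Organic + UVR and -1.54 in Organic-UVR, beside -1.53 in TiO2 + UVR, and by 0.59 in TiO2-UVR and -0.03 in Control + UVR. Insig2 differed by -0.68 and -0.95 in the organic groups beside -1.0, and by 0.22 and 0.03 in TiO2-UVR and Control + UVR. For Ciart the values were 1.28 in Organic + UVR (adjusted p = 0.22) and 1.91 in Organic-UVR (adjusted p = 0.0603) beside 2.30. Over the 51 transcripts lower in TiO2 + UVR, the median difference from Control-UVR was -0.59 in Organic + UVR, -0.70 in Organic-UVR, -0.05 in TiO2-UVR, -0.21 in Control + UVR, -0.21 in ZnO-UVR and 0.05 in ZnO + UVR. Over the 17 higher transcripts it was 0.36, 0.45, 0.11, 0.23, 0.25 and 0.06 in the same order. All of these comparisons share the 6 Control-UVR arrays, and the transcripts were chosen by their difference from them.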

How the data were processed

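Liver RNA of 47 mice in 8 groups was hybridised to the Mouse Gene 1.0 ST array of Affymetrix, each mouse on its own array. The deposited values are log2 levels that the authors made with robust multi-array average normalization (RMA). In the study every processing batch held 1 chip from each group, and batch effects were removed. Whether this was done to the deposited values is not stated, and the labels do not say that the replicate number is the batch. Arrays give no read depth, and their number limits the precision.

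Of 16383 probesets, 6568 control probesets were left out and 9815 tested. Symbols came from the platform annotation: 7450 transcripts had 1 symbol (7421 matched RefSeq GRCm38.p6), 511 several and 1854 none. The tested transcripts come mostly from chromosomes 1 and 10 to 16, so many clock and heme genes were not analysed here.

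limma 3.58.1 in R 4.3.3 fitted all 47 arrays with the group and the replicate number as a block, and moderated the variances (34 residual degrees of freedom, 42 after moderation). Calls were made below an adjusted p of 0.1 (Benjamini-Hochberg); the study also set its false discovery level at 10%, with tools of its own. The median half-width of a 95% interval was 0.29 on the log2 scale.

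The members and gene lists were chosen with earlier results of these data known. Named genes were, among transcripts with 1 symbol, the 12 largest increases and 18 largest decreases called, up to 3 called members of each list or else the member with the smallest p, all clock, heme, mevalonate and stathmin or tubulin genes, and the 3 smallest p-values of each further comparison. Motif searches used the 250 bases before each RefSeq start.

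The alternatives were no block, only the compared groups, unmoderated variances, array weights, quantile normalization, brighter transcripts, a stricter threshold, 1 probeset per gene, the array slope or the clock score as a covariate, part of the replicate numbers, and leaving out single arrays.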

Additional observations from a re-analysis of the deposited data

Results flagged for a closer look

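In 8 of 184 groups of 6 arrays examined for the named genes and the array slope, 1 array stood apart from the rest of its group, where chance gives about 1 in 20 (5%). In Control-UVR, Idi2, an isomerase of sterol synthesis, was lowest in replicate 1 at 2.52 against a nearest value of 3.05. Pecam1 was lowest in Control-UVR replicate 5 at 5.98 (nearest 6.21) and Per2 highest in Control-UVR replicate 1 at 6.08 (nearest 5.59). The array slope was highest in Control-UVR replicate 6 at 1.05. In TiO2 + UVR, the keratin gene Krt5 was highest in replicate 4 at 5.17 (nearest 4.67), Lgalsl lowest in replicate 6 at 5.85 (nearest 6.62), Nr1d2 highest in replicate 3 at 9.59 (nearest 9.26) and the heme synthesis gene Ppox highest in replicate 5 at 6.08 (nearest 5.49). The causes were not tested.

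The effect of UVR with the TiO2 sunscreen differed from that without sunscreen, by the interaction in limma, for 17 transcripts. The difference between these effects was -1.25 for Insig2, -1.62 for Slc30a10, -1.65 for Ddc, -1.26 for Avpr1a, -1.35 for Acmsd and -2.25 for Tubb2a. It was also below 0 for Tsc22d1 (-0.96) and for Bhmt, which remethylates homocysteine (-0.88). It was 2.13 for Nr1d2, 2.10 for Gdap10 and 0.99 for the output factor Hlf. The remaining positive differences were 1.43 for the peroxisomal transporter Abcd2, 1.17 for Rnf145, 0.88 for Bnip3, 1.75 for the flavin monooxygenase Fmo2, 0.71 for the nuclear import receptor Ipo5 and 1.15 for Fnip1. Adjusted p-values ran from 0.0123 to 0.0976.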

How the results depend on the processing

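None of the 33 named calls against Control-UVR changed direction under the alternatives run for it (29 of them under the clock score), but the balance of higher to lower calls did move: against Control + UVR from 43 higher and 26 lower to 19 and 33 with the compared groups alone, and against Control-UVR from 17 higher and 51 lower to 62 and 52 with the array slope. The replicate numbers were not shown to pair the arrays. Deviations of same-numbered Control-UVR and TiO2 + UVR arrays correlated at -0.103 to 0.252, with a mean of 0.11. The mean was -0.0215 for pairs with different numbers, and 3 of 6 TiO2 + UVR arrays correlated best with their own number. Without the replicate block the calls fell from 68 to 30 against Control-UVR, from 64 to 42 against TiO2-UVR, from 69 to 45 against Control + UVR and from 17 to 7 for the interaction, and stayed at 0 against Organic + UVR.

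Against Control-UVR, array weights gave 392 calls (153 higher, 239 lower) and the compared groups alone 69 (29 higher, 40 lower). The 68 calls of the main fit were all among the 392, but only 42 of them were among the 69. After quantile normalization, 46 of the 59 calls were among the 68. An adjusted p under 0.05 gave 36 and the array slope as a covariate 114. Leaving out Organic-UVR replicate 1, an array of no compared group that entered the fit, gave 116. That array had the lowest slope of any, 0.77. The other slopes ran from 0.90 (Organic + UVR replicate 4) to 1.07 (TiO2-UVR replicate 4). Its median log2 level of 5.45 was the highest, followed by 5.34 in Organic + UVR replicate 2. Why leaving it out moved the count was not tested. The clock score as a covariate gave 0 (841 unadjusted), and so did replicate numbers 1 to 3 alone (380 unadjusted). Numbers 4 to 6 alone gave 95, of which 34 were among the 68. Leaving out 1 array gave 24 to 162. Of 33 named calls, 13 were lost without the block, 12 with unmoderated variances, 8 with the compared groups alone and 7 after quantile normalization.

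Against TiO2-UVR, quantile normalization gave 100 and the array slope 178 calls, and leaving out 1 array 31 (TiO2 + UVR replicate 6) to 76, with 39 without TiO2-UVR replicate 1 and 41 without TiO2 + UVR replicate 4. Against Control + UVR the same settings gave 110, 204 and 26 (TiO2 + UVR replicate 6) to 93, with 38 without Control + UVR replicate 6 and 39 without TiO2 + UVR replicate 4. There an adjusted p under 0.05 gave 39 and leaving out Organic-UVR replicate 1 gave 121. Against Organic + UVR, the compared groups alone gave 25 and array weights 2.

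The interaction gave 62 calls with the compared groups alone, 97 with array weights, 37 after quantile normalization, 49 with brighter transcripts, 36 with 1 probeset per gene, 61 with the array slope and 76 without Organic-UVR replicate 1. Leaving out 1 array gave 9 (TiO2-UVR replicate 1) to 34 (Control-UVR replicate 2), with 33 without Control + UVR replicate 3 and 29 without TiO2 + UVR replicate 5, 11 without replicate 6 of Control-UVR or replicate 5 of Control + UVR, and 10 without replicate 6 of Control + UVR or replicate 3 of TiO2 + UVR. The causes were not tested. Dim transcripts limit what could be measured, and a missed threshold does not show equal levels.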
